A study of Mus musculus with 6 samples.

Results

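The unfolded protein response and the integrated stress response were described through 37 genes, all present among the 24421 gene symbols of the count table. The members were a list of symbols taken from textbook roles: chaperones and folding enzymes of the endoplasmic reticulum (ER), genes of ER-associated degradation (ERAD), the stress sensors and transcription factors, and the genes under the transcription factor ATF4. The rule that lists them uses no measured value, but the members were chosen with earlier results of these data known. Of the 37, 36 were abundant enough to test. Derl3, a channel component of ERAD, was not: it lay between 0.107 and 0.290 CPM (read counts per library, scaled to the same total) in the 6 libraries.

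RNA came from mouse endothelial cells derived from brain, 3 libraries labelled Fli-1 knockout and 3 labelled WT (wild-type). All 6 samples shared the same culture medium with fetal bovine serum, and the labels give induction of Fli-1 allele deletion with 4-OHT (4-hydroxytamoxifen) as the treatment of every sample, the wild-type ones included. Cells had spent 6 days after induction in co-culture with a vascular niche and were then sorted by fluorescence. The study asked how loss of Fli-1, an ETS family transcription factor of endothelial and blood cells, alters endothelial gene expression. Strain, age, the allele carried, the Cre driver and whether the samples came from separate cultures or animals have no entry in the labels used here. The p-values below therefore measure only the spread between these samples, which may be technical.

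Libraries held 17550185 to 21385951 counts, and no 2 agreed within sampling noise. Fli1 itself went against the labels: it measured 76.8, 110.5 and 77.3 CPM under the knockout label and 45.3, 59.5 and 45.7 CPM under the wild-type label, a paired log2 fold change of 0.81 ± 0.05 (edgeR, adjusted p = 1.25e-15). The labels do not name the deleted exons, so a count over the whole gene cannot check the deletion, and groups are called by their labels throughout. Whether the labels were exchanged was not tested; if they were, every direction given below would reverse. Defining endothelial markers were abundant: Cdh5 lay between 4430 and 5150 CPM and Pecam1 between 2956 and 4077 CPM. Libraries sharing a replicate number resembled each other, with deviations from the group means correlating at 0.797, 0.879 and 0.69 within the 3 numbers. The members were therefore read in same-numbered pairs, beside the comparison of the 3 libraries against 3 that ignores the numbers.

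When unfolded proteins build up in the ER, 3 sensors in its membrane respond. IRE1 (Ern1) splices the Xbp1 message into an active form, ATF6 is cut to release a transcription factor, and PERK (Eif2ak3) phosphorylates the initiation factor eIF2alpha. XBP1 and ATF6 raise chaperones and ERAD genes, while phosphorylated eIF2alpha lowers general translation and favours translation of Atf4. Other kinases reach the same eIF2alpha step when amino acids or haem run short, which is why ATF4 targets for amino acid uptake and synthesis can move without the chaperones. Endothelial cells carry a large secretory load of matrix and clotting proteins and depend on this folding machinery.

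In the same-numbered pairs, 6 members rose and 1 fell in the libraries labelled knockout. Psat1, Phgdh and Shmt2, which make serine and glycine, rose, as did the ER chaperone genes Manf and Hyou1 and the sensor gene Ern1. Ppp1r15a, which encodes the stress-induced subunit that removes phosphate from eIF2alpha, fell. The changes were small, with paired log2 fold changes from 0.14 to 0.33 among the 6 that rose. In the test that ignored the pairs, edgeR called 0 members in either direction, against 0% of all 12753 tested genes called higher and 0.00784% called lower. It gave 0 members an unadjusted p under 0.05 (611 of all genes), and DESeq2 and limma-voom likewise called 0. The adjusted p of every called member in that test was 0.996.

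With the pairs, the test called 4.81% of all tested genes higher and 4.01% lower at a false discovery rate of 0.05. Thus 6 of 36 members higher stood above the share over all genes and 1 of 36 lower did not. As the members were chosen with earlier results of these data known, this excess is no independent test. The median paired log2 fold change was 0.06 over the members and -0.0033 over all genes. In sign, 27 members were above 0 and 9 below it, against 6239 and 6514 of all genes, and with libraries scaled by size alone the same counts were 24 and 12, against 5031 and 7722. All 3 pairs were higher in 16 members, against 20.5% of all genes, and lower in 5 members, against 20.1%. The CPM ranges of the groups did not overlap in 2 members, Pdia4 and Ddit3, against 10.2% of all genes. With DESeq2 on the pairs 2 members were higher and 0 lower, Psat1 and Shmt2, where 2.23% and 0.944% of all genes were called. Psat1 and Shmt2 were also called without any 1 of the pairs and with libraries scaled by size alone.

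**Figure D1:**
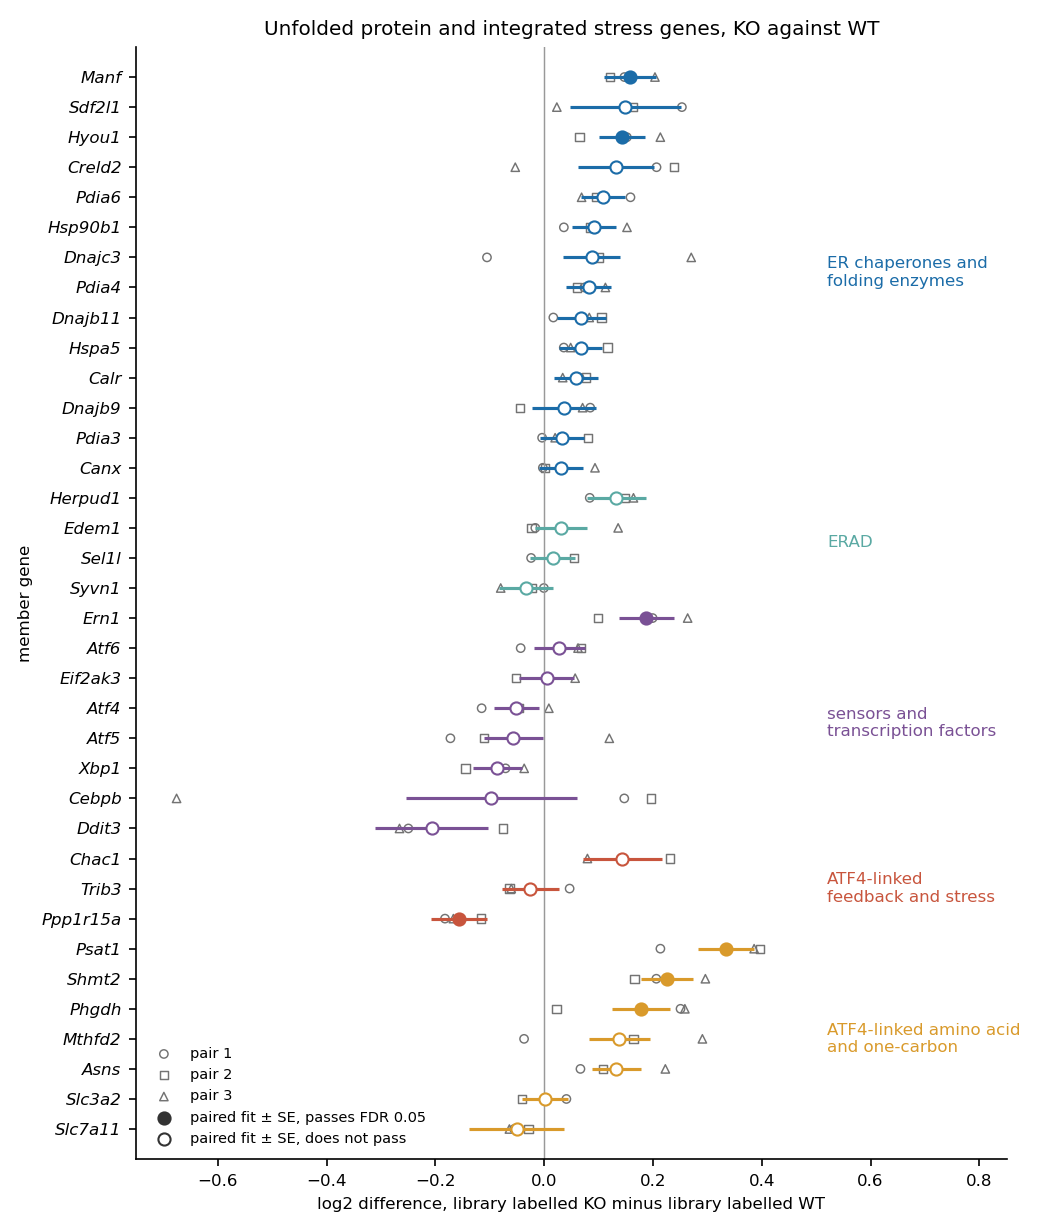
Paired log2 fold change (libraries labelled knockout over wild-type, x axis) of the 36 tested members (y axis), grouped by role, with large circles for the fit, bars for its SE and small symbols for the 3 pairs; filled circles passed the paired edgeR test. All 14 chaperone and folding genes lie above 0 with 2 filled, and Psat1 at 0.33 is the farthest right.

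The amino acid and one-carbon genes under ATF4 held the largest changes, with a median paired log2 fold change of 0.14. Of the 7, 3 rose and 0 fell, against 4.81% and 4.01% of all genes. Psat1, the aminotransferase of serine synthesis, stood at 68.4, 63.6 and 97.0 CPM in knockout-labelled libraries 1, 2 and 3 and at 58.9, 48.2 and 74.1 CPM in their wild-type partners. Its paired log2 fold change was 0.33 ± 0.05 (SE derived from the edgeR fit to the 3 pairs, edgeR adjusted p = 8.11e-06). Each knockout-labelled library exceeded its own partner, although the groups overlapped because library 3 was high and library 2 low under both labels.

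Shmt2, the mitochondrial enzyme that turns serine into glycine and feeds the folate pool, lay at 87.8, 73.0 and 106.8 CPM in the knockout-labelled libraries and at 76.0, 65.0 and 86.9 CPM in the others. It changed by 0.23 ± 0.05 on the log2 scale (edgeR adjusted p = 0.0011). The order of the libraries was the same under both labels, with number 2 lowest and number 3 highest. Phgdh, the first enzyme of serine synthesis, measured 51.5, 63.3 and 85.4 CPM against 43.2, 62.3 and 71.3 CPM, a paired log2 fold change of 0.18 ± 0.05 (edgeR adjusted p = 0.0281). Its second pair was nearly level, and pairs 1 and 3 carried the difference. The call was lost with DESeq2 (adjusted p = 0.362), when libraries were scaled by size only (0.0714), and on leaving out pair 1 (0.117) or pair 3 (0.23).

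Asns, asparagine synthetase, was 130.1, 101.8 and 140.9 CPM in the knockout-labelled libraries and 124.2, 94.5 and 120.7 CPM in the wild-type ones. Its log2 fold change of 0.13 ± 0.05 missed the threshold (edgeR adjusted p = 0.0583), with all 3 pairs higher. Mthfd2, the mitochondrial folate enzyme that follows Shmt2, had a log2 fold change of 0.14 ± 0.06 and did not pass (edgeR adjusted p = 0.127), with 1 of 3 pairs lower. The 2 transport members gave no call. Slc3a2, the heavy chain shared by several amino acid exchangers, stood at 150.5, 141.9 and 154.1 CPM against 146.3, 145.9 and 153.7 CPM, a log2 fold change of 0.0016 ± 0.043, or -0.02 with libraries scaled by size alone. Slc7a11, the cystine transporter that pairs with it, lay between 12.7 and 17.2 CPM against 13.2 to 17.6 CPM, a log2 fold change of -0.05 ± 0.09. Thus the serine and glycine enzymes among the 7 passed the paired test, and the transport pair did not.

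**Figure D2:**
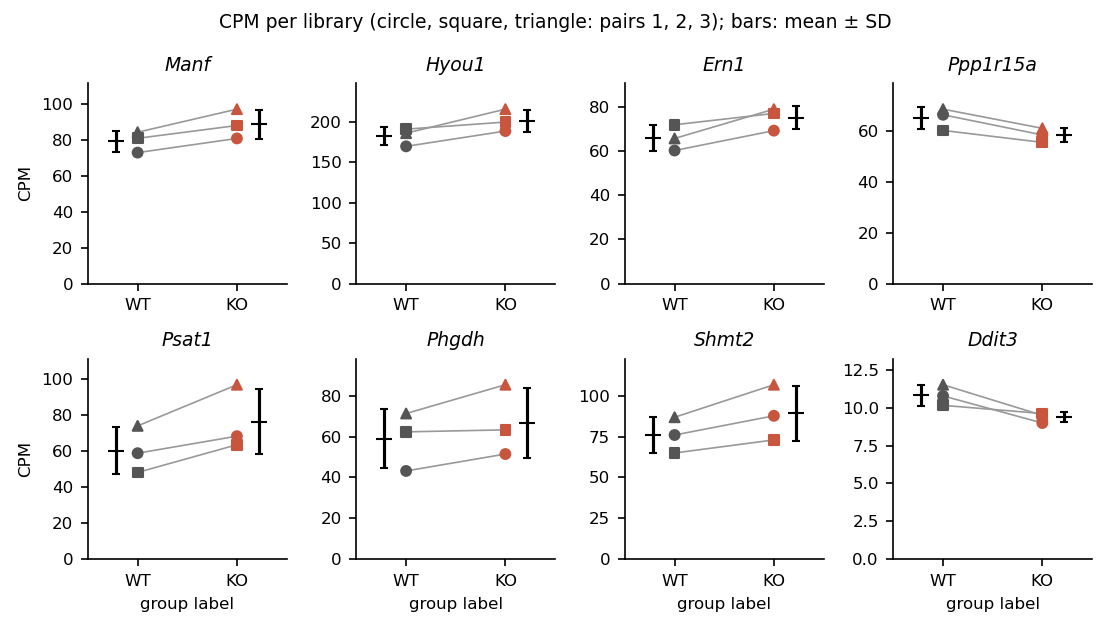
CPM (y axis, from 0) of the 7 members that passed the paired test and of Ddit3, by group label (x axis), with lines joining same-numbered libraries and bars for mean ± SD over 3 libraries. Lines slope the same way in all 3 pairs of each gene, while the group ranges overlap in every panel except that of Ddit3.

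A second list of 19 genes for amino acid synthesis, folate chemistry and uptake, some of them known ATF4 targets, was read beside the members. The paired test called 7 of the 19 higher and 0 lower, against 4.81% and 4.01% of all genes. The median log2 fold change of the list was 0.18. Slc7a5, the exchanger subunit for large neutral amino acids that pairs with Slc3a2, had the smallest p, with 199.3, 131.4 and 191.9 CPM against 168.8, 109.8 and 152.7 CPM. Its log2 fold change was 0.28 ± 0.04 (edgeR adjusted p = 7.39e-06). Slc1a5, a transporter of glutamine and other neutral amino acids, rose by 0.39 ± 0.09 and Mthfd1l, a mitochondrial folate enzyme, by 0.24 ± 0.06 on the same scale. The other 4 that rose were Aldh1l2, Aldh18a1, Slc7a1 and Slc38a2. The remaining 12 did not pass. Among them were 2 further enzymes of serine and glycine metabolism, Psph at 0.10 ± 0.07 and Shmt1 at 0.30 ± 0.12 (edgeR adjusted p = 0.464 and 0.117). Without pair 2 the list had 5 calls and with libraries scaled by size alone 6, while DESeq2 called 1. Cytosolic aminoacyl-tRNA synthetases charge transfer RNAs, and some are known ATF4 targets. Among 17 of them 1 rose (Gars, glycyl-tRNA synthetase, 0.13 ± 0.04, edgeR adjusted p = 0.0292), against 4.81% of all genes. Fold changes were above 0 in 17 under TMM scaling and in 15 under scaling by size alone. Gars was not called without pair 2, with DESeq2 or with libraries scaled by size alone.

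Of the 3 feedback and stress genes under ATF4, 0 rose and 1 fell, against 4.81% and 4.01% of all genes. Ppp1r15a measured 58.6, 55.6 and 61.2 CPM in the knockout-labelled libraries and 66.5, 60.3 and 68.7 CPM in their partners. The paired log2 fold change was -0.16 ± 0.05 (edgeR adjusted p = 0.0446). Every pair was lower, with a slight overlap between knockout-labelled library 3 and wild-type-labelled library 2. Trib3, a pseudokinase that restrains ATF4 and AKT, lay at 56.8, 56.2 and 54.4 CPM against 55.01, 58.8 and 56.8 CPM, a log2 fold change of -0.03 ± 0.05 that did not pass. Chac1, which degrades glutathione, gave 31.2, 14.8 and 32.0 CPM against 28.2, 12.5 and 30.3 CPM, with a log2 fold change of 0.14 ± 0.07 (edgeR adjusted p = 0.25). The call for Ppp1r15a was lost with DESeq2 (adjusted p = 0.452) and without pair 1, 2 or 3, where edgeR's adjusted p ran from 0.133 to 0.181.

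Other stress targets of ATF4 and CHOP gave no call in the paired edgeR test with TMM scaling. Of 16 such genes 15 were tested, and edgeR with the pairs called 0, while 5 had an unadjusted p under 0.05, DESeq2 called 0, and limma-voom and edgeR with libraries scaled by size alone each called 1 lower. Their median paired log2 fold change was -0.07. The 3 with the smallest p were Gdf15, a secreted stress cytokine, at -0.28 ± 0.10, Vegfa, the endothelial growth factor, at -0.29 ± 0.09, and Sesn2, a restraint on mTORC1, at -0.14 ± 0.05 (edgeR adjusted p = 0.0969, 0.0974 and 0.101). Among 15 genes for the eIF2alpha kinases, phosphatases and eIF2B, edgeR, DESeq2 and limma-voom each called 0 with the pairs, and 0 had an unadjusted p under 0.05.

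All 14 ER-lumen chaperone and folding genes had paired log2 fold changes above 0, under TMM scaling and under scaling by library size alone, from 0.03 to 0.16 with a median of 0.08 in the former. Of the 14, 2 rose and 0 fell in the paired test, against 4.81% and 4.01% of all genes. Manf, a small ER protein that binds the chaperone BiP and is released under stress, stood at 80.9, 88.1 and 97.2 CPM under the knockout label and at 73.0, 81.0 and 84.4 CPM under the wild-type label. It changed by 0.16 ± 0.05 (edgeR adjusted p = 0.0273). Hyou1, a large relative of the Hsp70 chaperones that exchanges nucleotide on BiP, was 188.8, 199.95 and 215.9 CPM against 169.8, 191.1 and 186.1 CPM, a change of 0.14 ± 0.04 (edgeR adjusted p = 0.0228). In both genes each pair was higher and the groups overlapped. Neither call held with DESeq2 (adjusted p = 0.303 for Manf and 0.168 for Hyou1), without pair 2 (0.169 and 0.0867), without pair 3 (0.158 and 0.207) or with scaling by library size alone (0.0769 and 0.0746).

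The most abundant chaperones gave no call. Canx, the lectin chaperone calnexin, lay at 697.6, 730.0 and 745.4 CPM against 698.7, 729.1 and 698.6 CPM, a log2 fold change of 0.03 ± 0.04. Only library 3 differed visibly between the labels. Pdia3, the disulfide isomerase that works with calnexin, stood at 672.8, 760.7 and 736.8 CPM against 674.6, 719.4 and 726.6 CPM, also 0.03 ± 0.04. Hspa5, which encodes BiP, the master ER chaperone, gave 656.8, 717.7 and 727.2 CPM against 640.6, 661.9 and 703.1 CPM. Its log2 fold change was 0.07 ± 0.04 and did not pass (edgeR adjusted p = 0.356), although each pair was higher. Pdia4 was the single chaperone without overlap between the groups, at 182.5 to 193.8 CPM against 173.4 to 179.7 CPM, and its change of 0.08 ± 0.04 did not pass either (edgeR adjusted p = 0.249). Summed over the 14 genes, levels were 4276, 4630 and 4697 CPM in the knockout-labelled libraries and 4155, 4396 and 4428 CPM in their partners.

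ERAD genes, which pull misfolded proteins out of the ER for the proteasome, gave 0 calls with edgeR among the 4 tested, with 1 unadjusted p under 0.05, and DESeq2 and limma-voom also called 0. Sel1l, the scaffold of the ERAD ligase, lay at 201.1, 194.7 and 192.1 CPM against 204.5, 187.4 and 189.6 CPM. Edem1, which hands over misfolded glycoproteins, was 97.3, 101.1 and 102.6 CPM against 98.4, 102.7 and 93.3 CPM. These differences of 0.02 ± 0.04 for Sel1l, or -0.01 with libraries scaled by size alone, and 0.03 ± 0.05 for Edem1 on the log2 scale were below their errors. Herpud1, a stress-induced organiser of the ligase, had the widest change at 0.13 ± 0.05, with 51.7, 44.5 and 58.7 CPM against 48.7, 40.1 and 52.4 CPM (edgeR adjusted p = 0.134). Syvn1, the ligase itself, was at -0.03 ± 0.05.

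The wider folding and degradation machinery was read from lists of genes that are not members. Of 33 other ER folding and translocation genes, 3 rose and 1 fell, 0.10 was the median log2 fold change, and 30 were above 0 (29 with scaling by size alone). Dnajc10, an ER reductase that works with BiP, rose by 0.19 ± 0.04, and Spcs3, a subunit of the signal peptidase, by 0.20 ± 0.05. Sec63, which couples BiP to the translocation channel, had 160.1, 174.9 and 160.4 CPM against 190.0, 198.9 and 177.5 CPM, and its change of -0.19 ± 0.04 passed the test (edgeR adjusted p = 0.00123). The third gene to rise was Sec61a1, the channel itself, by 0.14 ± 0.04. Of 20 other ERAD genes 1 rose (Edem2, 0.19 ± 0.05), and the median was 0.0029, or -0.02 with scaling by size alone. Over all genes the paired test called 4.81% higher and 4.01% lower. Without pair 2 edgeR called 1 higher and 1 lower in the folding list and 0 in the ERAD list. Of 17 cytosolic and mitochondrial heat shock genes, which answer unfolded proteins outside the ER, edgeR, DESeq2 and limma-voom called 0 with the pairs, 1 had an unadjusted p under 0.05 and the median was 0.03.

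**Figure D3:**
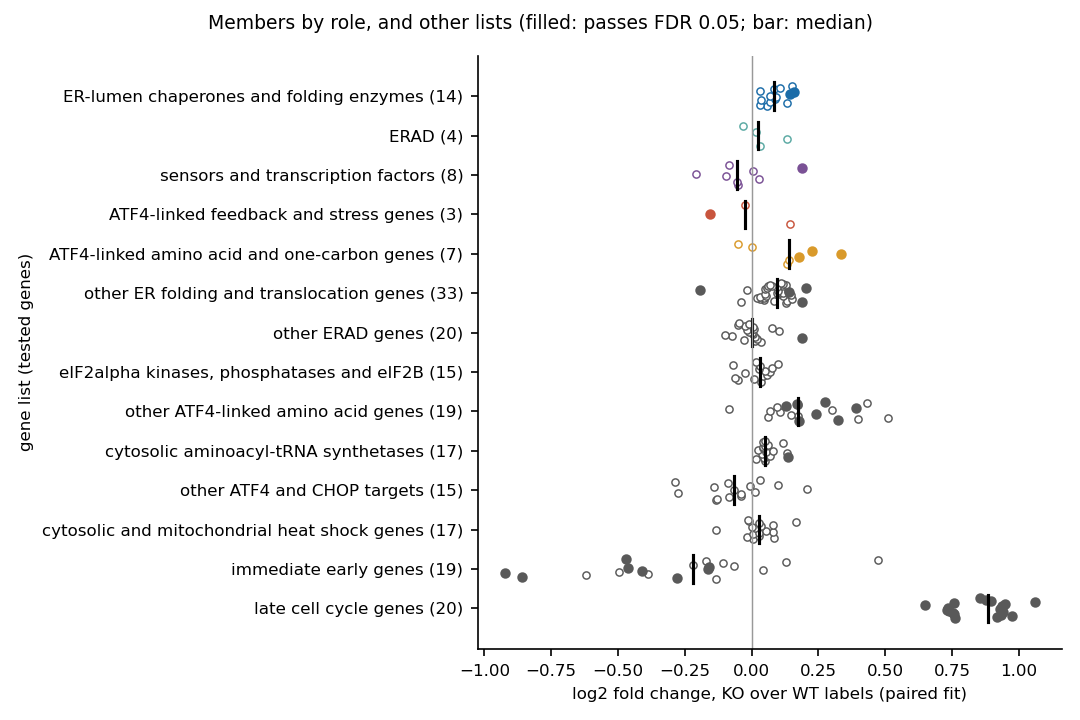
Paired log2 fold change (x axis) of every tested gene in the 5 role groups of members (coloured) and 9 other lists (grey), with the number tested in brackets on the y axis; filled points passed the paired edgeR test and black bars mark medians. The late cell cycle genes sit apart at a median of 0.89 and the immediate early genes lie mostly below 0, while the member groups have medians between -0.05 and 0.14.

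Among the 8 sensors and transcription factors, 1 rose and 0 fell, against 4.81% and 4.01% of all genes. Their median log2 fold change was -0.05. Ern1, the gene of the sensor IRE1, measured 69.2, 77.0 and 78.9 CPM in the knockout-labelled libraries and 60.2, 71.9 and 65.7 CPM in the wild-type ones. It changed by 0.19 ± 0.05 (edgeR adjusted p = 0.0118), was higher in each pair and overlapped between the groups. The call held without pair 2 (adjusted p = 0.0358) and not with DESeq2 (adjusted p = 0.208) or without pair 3 (0.121). The other sensor genes did not pass, with Atf6 at 0.03 ± 0.05 and Eif2ak3 at 0.0046 ± 0.050 (-0.02 with scaling by size alone).

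The transcription factors downstream of the sensors gave no call. Atf4 stood at 280.2, 255.8 and 320.5 CPM against 303.5, 264.1 and 318.5 CPM, a log2 fold change of -0.05 ± 0.04. ATF4 is governed largely at translation, and its protein was not measured. Xbp1 lay at 103.1, 137.1 and 109.6 CPM against 108.4, 151.6 and 112.4 CPM, lower in each pair, with a log2 fold change of -0.09 ± 0.04 that did not pass (edgeR adjusted p = 0.265). Gene-level counts do not tell spliced from unspliced Xbp1. Ddit3, which encodes CHOP, the factor tied to cell death under lasting stress, was 8.99, 9.62 and 9.50 CPM against 10.8, 10.2 and 11.5 CPM. The groups did not overlap, yet its log2 fold change of -0.21 ± 0.10, the largest in size of the 8, did not pass (edgeR adjusted p = 0.25). Atf5 was at -0.06 ± 0.05, and Cebpb, the least abundant at 2.96 to 7.96 CPM, at -0.10 ± 0.16. The log2 differences of Cebpb were 0.15 and 0.20 in pairs 1 and 2 and -0.68 in pair 3.

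Members also varied between replicate numbers, in a share near that of all genes. The log2 range over the 3 numbers exceeded the difference between the 2 group means in 32 of 36 members (88.9%, against 83.7% of all genes), and a range over 3 values favours the numbers over a single difference. The 10 genes under ATF4 were lowest in number 2 under both labels in 7 cases, against 22.2% of all genes. Chac1 shows it most plainly, with 14.8 and 12.5 CPM in the libraries numbered 2 and at least 28.2 CPM in the other four. Its log2 range of 1.16 over the numbers compares with a difference of 0.15 between the labels. In all, 6 members, Xbp1, Atf5, Cebpb and Slc7a11 among them, were highest in number 2 under both labels (16.7%, against 22.6% of all genes), and 9 of the 14 chaperones were lowest in number 1 under both, against 16.6% of all genes. Number 3 was highest under both labels in 4 of the 7 amino acid genes and 6 of the 14 chaperones, against 19.3% of all genes, and lowest under both in 0 of either. Whether the 2 groups of genes differ in the order of the libraries was not tested.

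**Figure D4:**
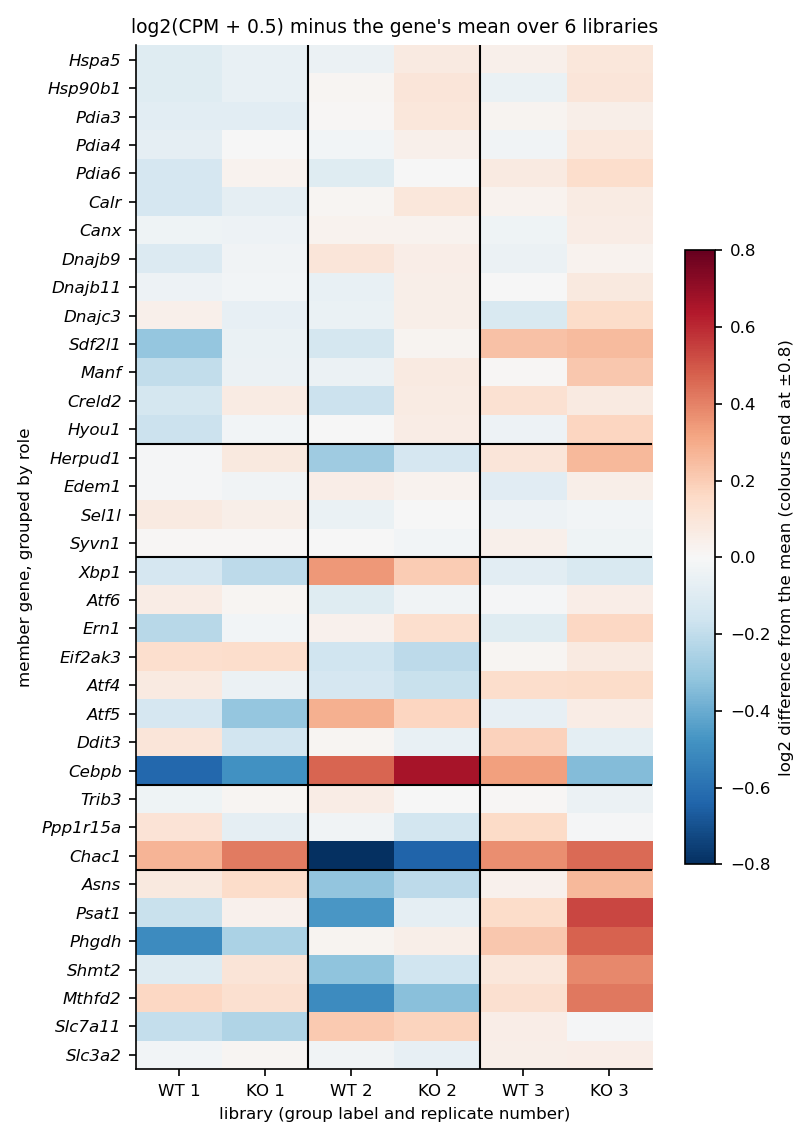
Colour gives log2(CPM + 0.5) minus the gene's mean over 6 libraries for the 36 tested members (rows, grouped by role) in each library (columns, same-numbered libraries side by side). Chac1 is low in both libraries numbered 2 and Cebpb is high there. Differences between neighbours within a number are mostly faint. Cebpb in number 3 is an exception, at 3.71 CPM under the knockout label and 6.22 CPM under the wild-type label.

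Other gene lists moved with the same labels and numbers. Their counts stand against 4.81% of all genes called higher and 4.01% called lower in the paired test. Late cell cycle genes were all called higher (20 of 20, median log2 fold change 0.89), with summed levels of 392.8 to 657.3 CPM in the knockout-labelled libraries and 225.7 to 360.6 CPM in the others. Immediate early genes, which respond to handling as well as to growth signals, were called lower in 8 of 19 (median -0.22), with Fos, Egr1 and Junb at -0.93, -0.86 and -0.46. Fibroblast markers summed to 185.5 to 1353 CPM and 247.5 to 1919 CPM under the 2 labels, with Col1a1 highest in number 2 at 507.4 and 729.3 CPM, and 1 of 10 tested rose and 4 fell. Mural cell markers summed to 1446 to 1896 CPM and 1427 to 2256 CPM, with 3 of 11 tested lower. Endothelial markers summed to 15960 to 17880 CPM and 15820 to 16900 CPM, with 2 of 15 higher and 1 lower. Blood cell markers summed to 120.1 to 238.9 CPM and 88.01 to 199.4 CPM. Of the 16, 3 were tested, all 3 were higher in every pair (median 0.33) and 2 of them rose (Laptm5 and Coro1a). In all, 7 had no count in any library, Spi1, Cd48, Cd52, Rac2, Tyrobp and Cd3e among them. Of 12 neural markers 3 were tested with 0 calls by edgeR, DESeq2 or limma-voom on the pairs and 0 with an unadjusted p under 0.05, and Aqp4, Olig2 and Sox10 were at 0. The part of the cell cycle, immediate early and fibroblast genes in the members' values was not tested, and in bulk RNA fewer cells of a type cannot be told from less RNA per cell.

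Each pair was left out in turn. Without pair 2, in which Col1a1 was highest, 2.66% of all genes were called higher and 1.61% lower. Then 4 members were higher and 0 lower: Psat1, Shmt2, Phgdh and Ern1. The amino acid members kept 3 calls and the chaperones had 0. Chaperones and ERAD genes also had 0 calls without pair 3, and 3 higher without pair 1. With libraries scaled by size alone, 3.69% of all genes were called higher and 5.76% lower, the median of all genes moved to -0.03, and 3 members were higher (Ern1, Psat1 and Shmt2) and 1 lower (Ppp1r15a).

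Promoter sequence was read because the chaperone genes and the genes under ATF4 are known to be reached through different elements. RefSeq windows from 250 bases before to 50 bases after the annotated start (GRCm38.p6) were found for 34 of the 37 members, with none for Manf, Hyou1 and Atf6. The 4 motifs were searched on both strands. The ER stress element ERSE, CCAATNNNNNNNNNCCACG, through which NF-Y and ATF6 are known to act, was in 9 of 34 members (26.5%), against 0.137% of 27025 genes with a window. The 9 were Hspa5, Hsp90b1, Calr, Canx, Pdia6, Dnajc3, Creld2, Syvn1 and Derl3, all from the chaperone and ERAD groups, and Hsp90b1 held it in 2 places. The related ERSE-II, which is ATTGG and CCACG with 1 base between them, was in Herpud1 and Dnajb11 (5.88% against 0.0444%). A composite of C/EBP and ATF half-sites, TGATGNAA, through which ATF4 with a C/EBP partner is known to act, was in Asns, Chac1, Herpud1, Slc7a11 and Trib3 (14.7% against 4.51%). The unfolded protein response element core, TGACGTGG, was in 0 members and 0.714% of genes. No matches overlapped.

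The bases before the RefSeq start of 4 members are shown because they carry these matches, in capitals. These bases hold 3 of the arrangements found: ERSE alone, ERSE-II with a composite site, and a composite site alone. They lie at chr2:34771970-34772089 on the plus strand (Hspa5), chr10:86705445-86705674 on the minus strand (Hsp90b1), chr8:94386299-94386428 on the plus strand (Herpud1) and chr6:7693210-7693309 on the minus strand (Asns). RefSeq and GENCODE starts differ in Hspa5, Hsp90b1 and Asns. The GENCODE model of Hspa5 covers the whole stretch shown, its ERSE included, and that of Asns covers its composite site. The model of Hsp90b1 reaches into the stretch but not as far as either match.
Hspa5: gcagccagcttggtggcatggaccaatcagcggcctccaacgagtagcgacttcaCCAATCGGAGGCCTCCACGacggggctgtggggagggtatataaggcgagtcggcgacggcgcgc
Hsp90b1: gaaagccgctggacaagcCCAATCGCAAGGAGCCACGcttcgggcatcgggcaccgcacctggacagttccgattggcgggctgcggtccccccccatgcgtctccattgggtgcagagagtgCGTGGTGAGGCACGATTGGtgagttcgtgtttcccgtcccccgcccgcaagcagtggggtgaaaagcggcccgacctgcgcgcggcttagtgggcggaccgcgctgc
Herpud1: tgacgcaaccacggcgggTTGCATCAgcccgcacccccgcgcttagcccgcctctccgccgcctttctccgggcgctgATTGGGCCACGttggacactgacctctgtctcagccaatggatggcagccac
Asns: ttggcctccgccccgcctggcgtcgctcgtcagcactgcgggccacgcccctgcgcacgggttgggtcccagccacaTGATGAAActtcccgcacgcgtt
In Hsp90b1 the second match reads on the opposite strand, as does the composite site of Herpud1.

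**Figure D5:**
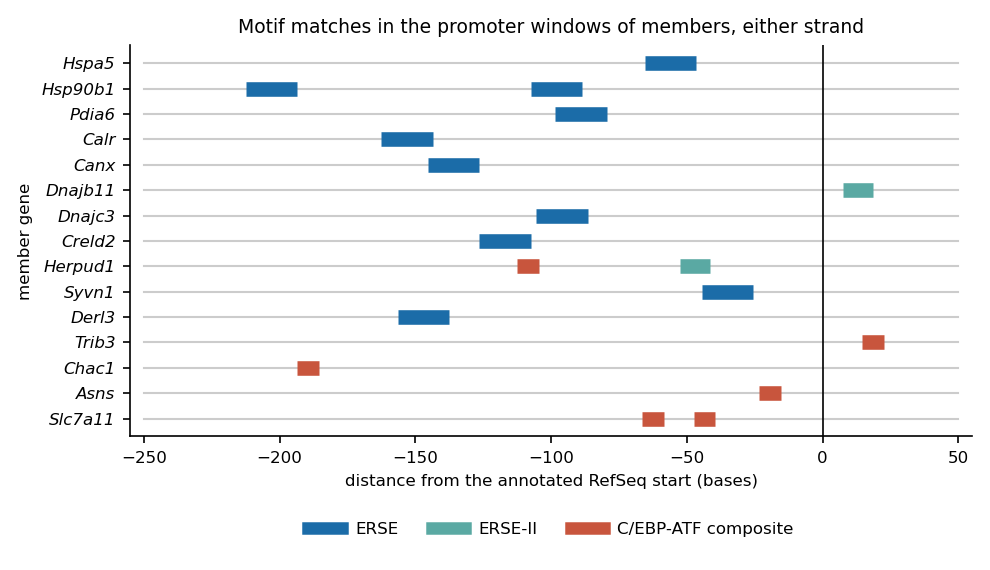
Position of each motif match (coloured blocks) along the promoter window of the 15 members that hold one, as distance in bases from the annotated RefSeq start (x axis, vertical line at 0). ERSE blocks fall upstream of the start between -212 and -26, and the composite of Trib3 and the ERSE-II of Dnajb11 fall after it.

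Of the 5 called members with a window, 0 held a match. The 8 tested members with an ERSE had paired log2 fold changes from -0.03 (Syvn1) to 0.13 (Creld2), and those with the composite ran from -0.05 (Slc7a11) to 0.14 (Chac1), none of which passed. A match is a description of the letters in the window and not of binding, which was not measured.

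Levels between genes are comparable only per length, and TPM values (counts per exon length, scaled to a common total) were computed here for that. Pdia3 was the most abundant member at a mean of 945.7 TPM over 6 libraries, followed by Calr at 870.9, Hspa5 at 671.6, Canx at 633.9 and Hsp90b1 at 620.5. The ranges of Pdia3 (878.36 to 1012.3) and Calr (807.82 to 933.45) overlapped. So did those of Hspa5 (636.4 to 708.8), Canx (609.1 to 662.3) and Hsp90b1 (586.7 to 668.0). These ranges mix differences between libraries with differences between genes. Within every library, Pdia3 lay above Calr per exon length, and Hspa5 above Canx and Hsp90b1. The order of Canx and Hsp90b1 varied between libraries. Atf4 was the most abundant transcription factor at 510.9 TPM, and Ddit3 and Cebpb lay at 24.5 and 14.3. Psat1, Phgdh and Shmt2 stood at 66.4, 104.7 and 109.9 TPM, Manf at 98.97, Hyou1 at 110.1, Ern1 at 35.8 and Ppp1r15a at 87.4. The called members were thus of middle to high abundance, and none was among the 5 most abundant.

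In GENCODE M21 on GRCm38 the called members lie at chr19:15904678-15947337 (Psat1, minus strand), chr10:127517123-127522444 (Shmt2, minus), chr3:98313170-98339990 (Phgdh, minus), chr11:106394650-106487852 (Ern1, minus), chr9:44379490-44392369 (Hyou1, plus), chr9:106838312-106891979 (Manf, minus) and chr7:45522916-45526268 (Ppp1r15a, minus). Counts were taken over whole genes, and the strand setting is unknown. Shmt2 shares 32 exon bases with Ndufa4l2 on the opposite strand and Ppp1r15a 12 with Tulp2, while Manf shares 166 with 4930524O07Rik and 146 with Dcaf1 on the opposite strand and 14 with Rbm15b on the same strand. Among the members not called, Eif2ak3 shares 485 exon bases with Gm43292, Hsp90b1 415 with 1810014B01Rik, Cebpb 312 with Tmem189 and Ddit3 68 with Mars, so part of the reads of the genes named here may belong to a neighbour.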

How the data were processed

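Polyadenylated RNA was sequenced from 6 samples, 3 per label, with either of 2 TruSeq kits (non-stranded or stranded), per the labels' protocols, without a kit being named for each sample. The deposited table holds raw read counts per gene symbol, not normalised by the authors. Per the submitters' processing notes, FastQC 0.11.8, Trim Galore 0.6.4, STAR 2.6.1d and Subread 1.6.4 with featureCounts were used, with the builds mm10 and GRCm38. The annotation and the strand setting were not given in the sources used here.

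Genes passing filterByExpr (12753) were scaled by TMM (factors 0.983 to 1.02) and tested with edgeR 4.0.16 (robust quasi-likelihood F test, Benjamini-Hochberg adjustment over all genes, false discovery rate 0.05) in R 4.3.3. The designed test compared the groups. The paired test added the replicate number as a block, because same-numbered libraries correlated at 0.69 or more. The labels do not state this pairing. With the block the biological coefficient of variation was 0.0383 (0.189 without) on 2 residual degrees of freedom (4 without), so its p-values and SEs lean on a spread pooled across genes. Alternatives were DESeq2 1.42.0, limma-voom (limma 3.58.1), other scaling, no filter and leaving out libraries or pairs. The scripts were tested on simulated data. CPM uses TMM-scaled totals. Pair differences use log2(CPM + 0.5). The SEs given with edgeR are the absolute log2 fold change divided by the square root of F. They are not the spread of the 3 pair differences. TPM uses exon lengths from GENCODE M21 (24030 symbols, 98.4%, matched 1 gene), the longest locus for Ddit3. Members and lists were chosen with earlier results of these data known. Values are given for each called member, the 2 most abundant by CPM and the largest change in each role group, and up to 3 genes by p in other lists; the further genes and values named were chosen after their values were seen.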

Additional observations from a re-analysis of the deposited data

How the results depend on the processing

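With the replicate block the members called went from 0 to 6 higher and from 0 to 1 lower; other settings of the comparison without pairs left both at 0. In the paired test, limma-voom, RLE factors and no low-count filter kept the same 7 calls. DESeq2 gave 2 higher and 0 lower, with 0 among chaperones and ERAD and 0 lower among ATF4-linked genes. Scaling by library size alone gave 3 higher, with 0 among chaperones and ERAD, and turned Sel1l to -0.011, Eif2ak3 to -0.022 and Slc3a2 to -0.025. Leaving out 1 pair gave 2 to 8 members higher and 0 to 0 lower, 0 to 3 of them higher among chaperones and ERAD, and 0 to 0 lower among ATF4-linked genes, and each such fit leaves 1 residual degree of freedom. Manf and Hyou1 lost their calls without pair 2 or 3, Ern1 without pair 3, Phgdh without pair 1 or 3 and Ppp1r15a without any of the 3, while Asns, Dnajc3 and Mthfd2 gained one without pair 1; the cause was not tested. Log2 fold changes that changed sign ran from -0.00017 to 0.046 (Canx), -0.0024 to 0.18 (Dnajc3), -0.020 to 0.057 (Edem1), -0.0054 to 0.035 (Sel1l), -0.021 to 0.029 (Eif2ak3), -0.33 to 0.20 (Cebpb) and -0.020 to 0.020 (Slc3a2). Without the pairs, Phgdh ran from -0.039 to 0.34 as single libraries were left out. Derl3 was too low to test at this depth.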
